A study of Mus musculus with 6 samples.

Results

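Transcripts of 6 transcription factor genes that direct the differentiation of spermatogonia and oocytes, Sohlh1, Sohlh2, Dmrt1, Figla, Nobox and Lhx8, were followed in mouse embryonic stem cells after knockdown of Pcgf6. The genes were taken from a list by their symbol in the platform annotation, and all 6 had a single probe set on the array, out of 19938 genes measured. The 6 samples were V6.5 embryonic stem cells, each hybridised to a one-colour Affymetrix Mouse Gene 1.0 ST expression array. The groups were Pcgf6 hairpin cells with doxycycline (dox), which switches the hairpin on (shRNA1+dox and shRNA2+dox, n = 2), the same 2 lines without it (shRNA1-dox and shRNA2-dox, n = 2), and a line with a scrambled hairpin with dox (n = 1) and without it (n = 1). Dox was used at 1 µg/ml, and the length of treatment was not given in the sources used here. All cells were grown with leukemia inhibitory factor on inactivated fibroblast feeder cells, so feeder RNA can be part of every sample. The 2 Pcgf6 hairpins stand for 1 condition with a different hairpin on each array, and the labels do not tell whether arrays stem from independent cultures. The p-values therefore reflect the spread among these arrays alone, part of which may be technical. Within each hairpin group that spread lies between the 2 lines, so it also holds any difference between the hairpins or lines.

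In the testis and ovary these factors form a cascade. SOHLH1 and SOHLH2 are basic helix-loop-helix proteins that pair with each other and drive the differentiation of spermatogonia and of oocytes in primordial follicles, where they act upstream of LHX8, FIGLA and NOBOX. FIGLA is a helix-loop-helix activator of the zona pellucida genes, NOBOX and LHX8 are homeodomain proteins of early oocytes, and DMRT1 is a DM-domain protein of spermatogonia and Sertoli cells that controls the choice between mitosis and meiosis. Germ-line genes are held silent in embryonic stem cells in part by PRC1.6, the variant polycomb complex that contains the RING finger protein PCGF6.

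The samples were checked first. All levels are given on the log2 scale, with a precision limited by how few arrays there are. Pcgf6 measured 9.39 and 9.27 with dox under hairpins 1 and 2, against 11.56 and 11.70 without dox, and 11.82 and 11.80 in the scrambled line with and without dox. It fell by 2.30 on the log2 scale (SE 0.10, n = 2 against 2, limma adjusted p = 0.000846), a 4.94-fold fall. The mean of 10 embryonic stem cell markers lay between 11.81 and 12.06 on the 6 arrays. The mean of 19 feeder fibroblast markers measured 10.14 with dox and 10.13 without under hairpin 1, 10.49 and 10.02 under hairpin 2, and 9.82 and 9.30 in the scrambled line, so that it differed by 0.01, 0.47 and 0.52. In such bulk samples a different number of cells of a type and a different amount of RNA per cell cannot be told apart.

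With dox in the Pcgf6 hairpin lines, 2 of the 6 factors rose, Sohlh2 and Dmrt1, and 4 did not pass the test. The 6 factors were chosen with earlier results of these data known, so their counts are a description and no independent evidence. Over all genes tested 0.191% were called higher and 0.01% lower in this comparison, by limma at an adjusted p under 0.05, and 8.75% had an unadjusted p under 0.05, as did 2 of the 6 factors. Both genes were at least 1.5-fold higher under each hairpin, as were 0.336% of all genes. In both, the 2 induced arrays lay above the 4 other arrays, a pattern seen for 11.1% of all genes, while 12% had both induced arrays below the 4 others.

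**Figure D1:**
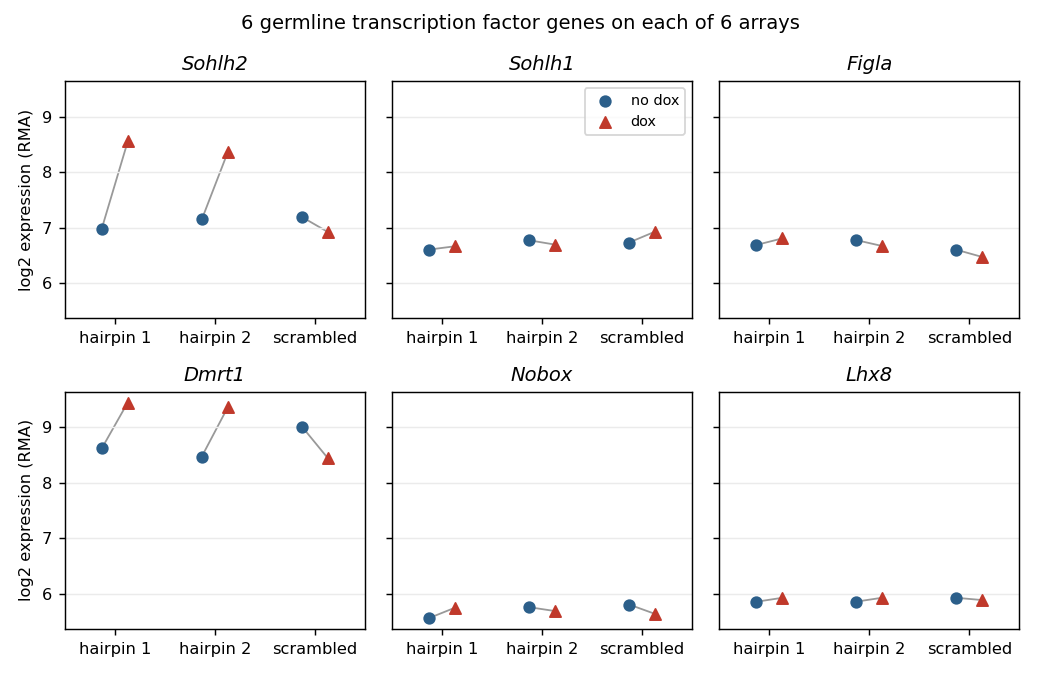
Log2 expression (vertical axis) of each of the 6 transcription factor genes in the hairpin 1, hairpin 2 and scrambled lines (horizontal axis); circles are arrays without dox, triangles arrays with dox, and a line joins the 2 arrays of a line. Sohlh2 reached 8.55 and 8.36 with dox under the Pcgf6 hairpins and at most 7.19 elsewhere, Dmrt1 9.45 and 9.36 with dox and at most 9.01 elsewhere, and Sohlh1, Figla, Nobox and Lhx8 moved by at most 0.20 within any line.

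Sohlh2 (probe set 10492123, chromosome 3) measured 6.98 without and 8.55 with dox under hairpin 1, 7.15 without and 8.36 with dox under hairpin 2, and 7.19 without and 6.92 with dox in the scrambled line. The 4 arrays without an active Pcgf6 hairpin lay within 0.27 of each other, and both induced arrays were more than 1 unit above the highest of them. The dox arrays of hairpins 1 and 2 were higher by 1.57 and 1.21, or 2.98-fold and 2.32-fold, while the scrambled line differed by -0.27. Over both hairpins Sohlh2 averaged 8.46 ± 0.14 (SD, n = 2) with dox and 7.06 ± 0.12 (SD, n = 2) without. It rose by 1.39 on the log2 scale (SE 0.11, 95% interval 1.13 to 1.66, limma adjusted p = 0.00882), which is 2.63-fold. The call was lost without the uninduced array of hairpin 1 (adjusted p = 0.157) or of hairpin 2 (adjusted p = 0.089), and where all 35556 probe sets were tested together (adjusted p = 0.0782). Hairpin 1, with the larger change of Sohlh2, had the smaller change of Pcgf6, -2.17 against -2.44, each from a single array against another. For Dmrt1 the order was the reverse, with 0.83 under hairpin 1 and 0.89 under hairpin 2. A relation between the size of the knockdown and the response was not tested.

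Sohlh1 (probe set 10480869, chromosome 2), whose protein is the partner of SOHLH2, measured 6.60 without and 6.66 with dox under hairpin 1, 6.77 and 6.69 under hairpin 2, and 6.73 and 6.93 in the scrambled line. The arrays with and without dox overlapped, and the highest value was that of the induced scrambled array. The change over both hairpins was -0.01 (SE 0.09, 95% interval -0.24 to 0.22, limma adjusted p = 0.99), and its sign differed between hairpins, at 0.06 and -0.08. The interval lies wholly below the change of Sohlh2. The deposited values carry no call of detection, so the table does not tell a transcript at a low level from one below background.

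The promoters of this pair are shown because their proteins act together while 1 of the 2 transcripts passed the test and the other did not. Windows of the 250 bases before the transcript start were taken from a set of RefSeq promoters (GRCm38.p6). The promoter set used here held 5 of the 6 genes, all but Dmrt1. The sequences run 5′ to 3′ on the strand of the gene, in lower case, with the hexamer CACGTG in capitals. The Sohlh1 window lies on chromosome 2 on the minus strand, chr2:25847249-25847498, and the Sohlh2 window on chromosome 3 on the plus strand, chr3:55181794-55182043.
Sohlh1: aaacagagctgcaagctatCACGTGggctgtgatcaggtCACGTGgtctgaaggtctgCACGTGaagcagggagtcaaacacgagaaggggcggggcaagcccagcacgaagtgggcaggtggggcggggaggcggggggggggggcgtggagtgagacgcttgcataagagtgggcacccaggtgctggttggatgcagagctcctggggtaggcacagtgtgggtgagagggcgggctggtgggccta
Sohlh2: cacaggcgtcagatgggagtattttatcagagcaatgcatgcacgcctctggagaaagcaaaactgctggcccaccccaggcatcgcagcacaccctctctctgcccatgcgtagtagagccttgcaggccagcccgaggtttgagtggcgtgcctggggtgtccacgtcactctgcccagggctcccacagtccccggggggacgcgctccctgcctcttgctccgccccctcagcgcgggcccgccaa

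The palindrome CACGTG is the E-box recognised by MAX and its partners, among them MGA of PRC1.6. It occurred 3 times in the Sohlh1 window, its first bases lying 231, 211 and 192 bases before the start, and 0 times in the windows of Sohlh2, Figla, Nobox and Lhx8. Over all 32851 RefSeq windows of this length 6.02% held at least 1 copy and 0.0609% held 3 or more, 20 windows in all. The E2F core GCGGGA, searched with its complement TCCCGC, was in none of the 5 windows and in 16.9% of all windows. The T-box octamer AGGTGTGA, or TCACACCT on the other strand, was in none of the 5 and in 1.12% of all. The number of CG dinucleotides was 11 for Sohlh1, 14 for Sohlh2, 14 for Figla, 11 for Nobox and 4 for Lhx8, with a median of 6 over all windows. These counts describe letters in the reference sequence. Binding was not measured.

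Dmrt1 (probe set 10462217, chromosome 19) measured 8.62 without and 9.45 with dox under hairpin 1, 8.47 without and 9.36 with dox under hairpin 2, and 9.01 without and 8.44 with dox in the scrambled line. Both induced hairpin arrays were the highest of the 6, and the uninduced scrambled array stood above both uninduced hairpin arrays. The changes were 0.83 and 0.89 under hairpins 1 and 2, or 1.78-fold and 1.85-fold, and -0.57 in the scrambled line, where 0.211% of all genes were at least 1.5-fold lower with dox; at 1.49-fold lower, Dmrt1 was just short of that. Dmrt1 averaged 9.40 ± 0.06 (SD, n = 2) with dox and 8.54 ± 0.10 (SD, n = 2) without under the Pcgf6 hairpins. It rose by 0.86 (SE 0.09, 95% interval 0.63 to 1.09, limma adjusted p = 0.0418), a 1.81-fold rise. The call was lost without any 1 of the 4 hairpin arrays. Leaving out the induced array gave an adjusted p of 0.18 for hairpin 1 and 0.147 for hairpin 2, and leaving out the uninduced array 0.165 and 0.333. It was 0.35 with the feeder marker mean as a covariate, 0.206 over all probe sets and 0.0789 without the dimmest 50% of genes. With that covariate the change was 0.88.

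Figla (probe set 10539665, chromosome 6) measured 6.69 without and 6.80 with dox under hairpin 1, 6.77 and 6.67 under hairpin 2, and 6.60 and 6.47 in the scrambled line. The hairpin arrays overlapped, and both scrambled arrays were the lowest of the 6. The change was 0.01 (SE 0.09, 95% interval -0.22 to 0.23, limma adjusted p = 0.993), and -0.01 with median centring of the arrays. Nobox (probe set 10544477, chromosome 6) measured 5.56 without and 5.75 with dox under hairpin 1, 5.76 and 5.69 under hairpin 2, and 5.81 and 5.64 in the scrambled line. Its arrays with and without dox overlapped, and the change was 0.06 (SE 0.10, 95% interval -0.18 to 0.30, limma adjusted p = 0.913). Lhx8 (probe set 10502961, chromosome 3) measured 5.86 without and 5.93 with dox under hairpin 1, 5.86 and 5.93 under hairpin 2, and 5.93 and 5.89 in the scrambled line. Its 6 values lay within 0.07, the smallest range of the 6 genes. The change of Lhx8 was 0.07 (SE 0.08, 95% interval -0.13 to 0.27, limma adjusted p = 0.852). The induced arrays of Lhx8 were above both uninduced hairpin arrays, as they were for 17.9% of all genes, and the uninduced scrambled array lay between them. For each of the 4 oocyte and spermatogonial factors that did not pass, the upper bound of the interval was at most 0.30 on the log2 scale.

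**Figure D2:**
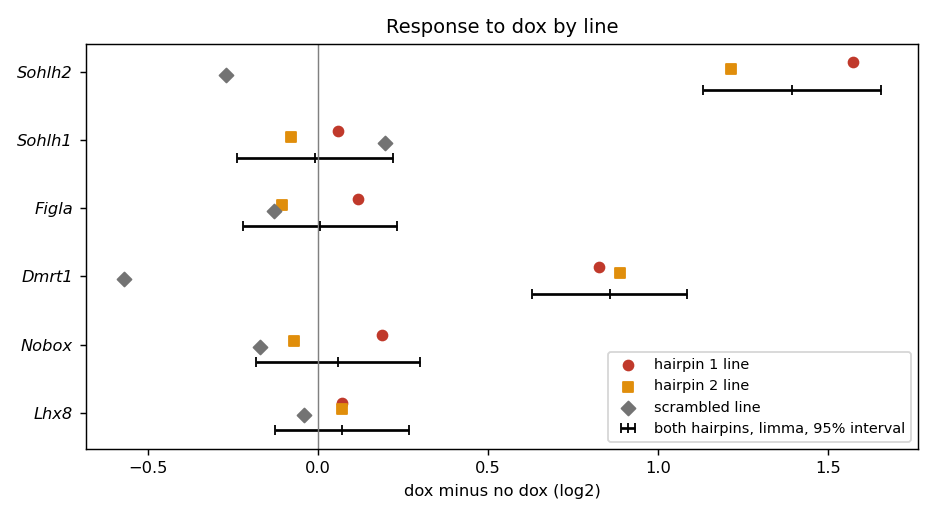
Dox minus no dox on the log2 scale (horizontal axis) for each gene; coloured symbols are single lines, 1 array against 1, and the black bar is the limma estimate over both Pcgf6 hairpins with its 95% interval. The intervals of Sohlh2 (1.13 to 1.66) and Dmrt1 (0.63 to 1.09) lie above 0, and those of the other 4 genes span it.

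Whether dox acted differently with a Pcgf6 hairpin than with the scrambled one was tested as a difference of changes. In this comparison 0 of the 6 factors passed by limma, and 2 of 6 had an unadjusted p under 0.05. Over all genes 0.0702% passed, 0.0652% with a higher and 0.00502% with a lower response under the Pcgf6 hairpins, and 4.55% had an unadjusted p under 0.05. The difference was 1.66 for Sohlh2 (SE 0.19, 95% interval 1.21 to 2.12, limma adjusted p = 0.0765) and 1.43 for Dmrt1 (SE 0.16, 95% interval 1.04 to 1.82, limma adjusted p = 0.0765). A fit that blocked on the hairpin passed 23 genes in place of 14, with Sohlh2 and Dmrt1 at a limma adjusted p of 0.068 and 0.0505. With median centring both passed, at an adjusted p of 0.0473 and 0.0461 by limma. Of the difference of Dmrt1, 0.57 came from the lower value of the scrambled line with dox, and for Sohlh2 0.27. The scrambled line was a single pair of arrays, so its spread was taken from the hairpin groups. The differences of Sohlh1, Figla, Nobox and Lhx8 measured -0.21, 0.14, 0.23 and 0.11, each with a limma adjusted p of 0.999.

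The induced Pcgf6 hairpins were also set against the 4 other arrays pooled, a comparison that shares its arrays with those above. Here 0.351% of all genes were higher and 0.0602% lower by limma, 0.411% in all, and 11.9% had an unadjusted p under 0.05. Of the 6 factors 1 passed and 2 had an unadjusted p under 0.05. Sohlh2 averaged 8.46 ± 0.14 (SD, n = 2) against 7.06 ± 0.13 (SD, n = 4), higher by 1.40 (SE 0.10, limma adjusted p = 0.00079). It stayed between 1.30 and 1.51 under the 14 alternatives in which it was tested. With the hairpin as a block it passed (limma adjusted p = 0.0221), and 39 genes passed in place of 82. That fit gives the scrambled line a mean of its own. Its estimate, 1.39, is therefore the change with dox within the hairpin lines, not the difference from the 4 other arrays. Dmrt1 averaged 9.40 ± 0.06 (SD, n = 2) against 8.64 ± 0.26 (SD, n = 4), a difference of 0.77 (SE 0.15) that did not pass (limma adjusted p = 0.135). Without the uninduced scrambled array Dmrt1 differed by 0.89 and passed (adjusted p = 0.00796), and with the feeder marker mean as a covariate it differed by 1.03 (adjusted p = 0.0493).

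The genes beside the members on the chromosome were examined after the members' values were seen. Of the 24 nearest protein-coding neighbours in RefSeq, 4 for each member, 22 had a probe set, and 0 passed by limma. An unadjusted p under 0.05 was found for 4 of these 22, against 8.75% of all genes. Their changes over both hairpins ran from -0.21 to 0.34. Dmrt1 lies beside its relatives Dmrt3 and Dmrt2, and these measured -0.04 (SE 0.09) and 0.16 (SE 0.11). On the other side of Dmrt1, Kank1 measured 0.24 (SE 0.12). Next to Sohlh2, Ccdc169 measured 0.15 (SE 0.11) and Dclk1 -0.11 (SE 0.09). The direction of Dmrt3 was the opposite with the feeder marker mean as a covariate.

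Relatives and partners of the factors were read from lists that, like those below, were chosen with earlier results of these data known. Beside each count of list genes with an unadjusted p under 0.05 stands a share of 8.75% over all genes. Of 8 other DMRT genes 0 rose or fell by limma, and 0 had an unadjusted p under 0.05. Their median change was 0.01, with a range from -0.12 to 0.16, against a median of -0.01 over all genes. Among 10 measured LIM homeobox genes, the family of Lhx8, 0 passed and 2 had an unadjusted p under 0.05. Their changes ran from -0.24 for Isl1 to 0.26 for Lhx9, with a median of -0.05. The E-protein genes Tcf3, Tcf4 and Tcf12 encode the dimer partners of tissue-specific helix-loop-helix factors, and Tcf3 that of FIGLA. They measured 0.00, 0.05 and 0.19, and 0 of 3 passed or had an unadjusted p under 0.05. The value of Tcf3 was below 0 with quantile normalization and with median centring.

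Genes of the oocyte programme, which includes targets of FIGLA and NOBOX, gave 0 of 19 measured members past the threshold by limma, and 2 with an unadjusted p under 0.05. The median change was -0.07. The zona pellucida gene Zp3 measured -0.16 (SE 0.11), the nucleoplasmin gene Npm2 -0.18 (SE 0.09) and Rfpl4 -0.30 (SE 0.10). Zp3 turned to 0.0089 with the feeder marker mean as a covariate. The one member with a change above 1.5-fold was Khdc3, which encodes Filia of the subcortical maternal complex. Khdc3 measured 6.90 without and 8.22 with dox under hairpin 1, 7.32 and 8.12 under hairpin 2, and 7.54 and 7.30 in the scrambled line. Its induced arrays were the highest of the 6, but the change of 1.06 (SE 0.14) did not pass (limma adjusted p = 0.0753).

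Genes that mark states of the spermatogonium gave 0 of 24 past the threshold by limma, with a median of -0.03. Of the 24, 5 had an unadjusted p under 0.05, against 8.75% of all genes. Kit, the stem cell factor receptor of differentiating spermatogonia and of oocytes, measured 9.66 without and 10.29 with dox under hairpin 1 and 9.59 and 10.16 under hairpin 2. The scrambled line measured 10.07 without and 10.10 with dox. The change of Kit was 0.60 (SE 0.09, limma adjusted p = 0.105). The uridine phosphorylase gene Upp1 measured -0.52 (SE 0.09, adjusted p = 0.142), the cyclin gene Ccnd2 0.33 (SE 0.17) and Zbtb16, which encodes the stem cell factor PLZF, -0.32 (SE 0.11). Ccnd2 differed by 0.05, 0.60 and 0.60 in the hairpin 1, hairpin 2 and scrambled lines, where the feeder marker mean differed by 0.01, 0.47 and 0.52. The part of feeder cells in it was not tested.

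Among other transcription factors of germ cells 0 of 18 measured passed by limma, and 2 had an unadjusted p under 0.05, with a median of 0.00. Hsf5, a heat shock factor of spermatocytes, measured 6.66 without and 7.14 with dox under hairpin 1, 6.29 and 7.05 under hairpin 2, and 6.50 and 6.32 in the scrambled line. Both induced arrays of Hsf5 were the highest of the 6, and its change was 0.62 (SE 0.13, adjusted p = 0.281). The helix-loop-helix gene Tcfl5 measured -0.35 (SE 0.09) with the hairpins and -0.28 in the scrambled line. Rfx2 measured -0.14 (SE 0.08). Obox6 measured -0.21 (SE 0.10), and 0.02 when both of its probe sets were averaged, so its probe sets disagree.

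**Figure D3:**
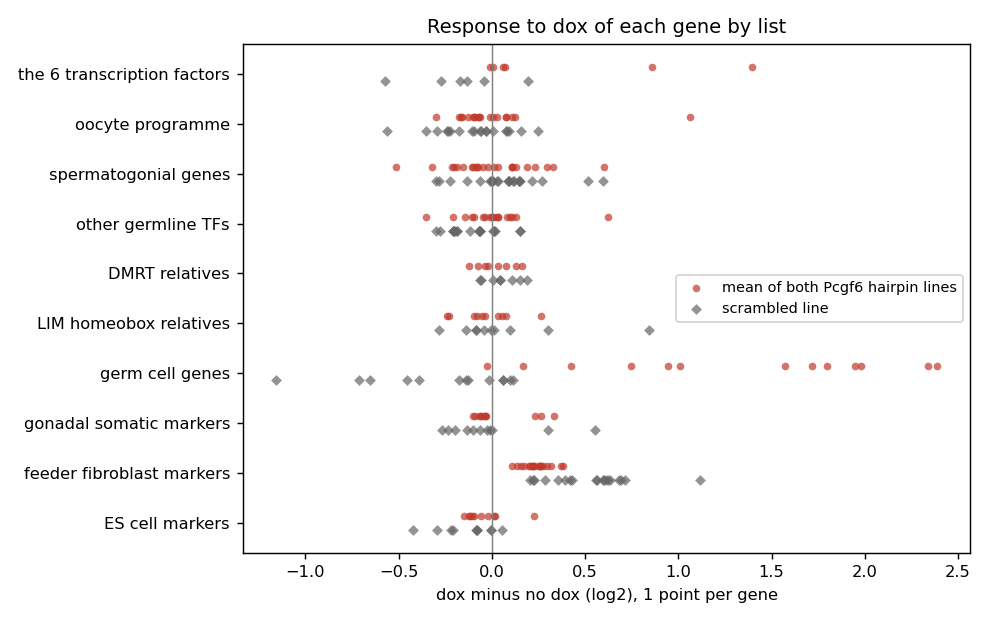
Dox minus no dox on the log2 scale (horizontal axis), 1 point per gene, for the 6 transcription factors and 9 gene lists (vertical axis); red circles are the mean of both Pcgf6 hairpin lines and grey diamonds the scrambled line. Sohlh2 (1.39) and Dmrt1 (0.86) stand apart from the other 4 factors, and 8 of 13 genes of the germ cell list, which was chosen with their rise known, passed by limma.

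A list of 13 germ cell genes that act further down the germ line was set beside the factors, and it holds genes already known to rise in these data, so its count is a description and no independent evidence of its direction. Of these 8 rose, 0 fell and 5 did not pass by limma, with a median change of 1.57. Ddx4, the germ-cell RNA helicase Vasa, rose by 1.72 (SE 0.09, adjusted p = 0.00178), and Dazl, an RNA-binding regulator of germ cell translation, by 0.94 (SE 0.09, adjusted p = 0.0202). The others that rose were Slc25a31 (2.39), Tex11 (2.34), Mael (1.98), Mov10l1 (1.95), Tdrkh (1.80) and Taf7l (1.57). Dazl did not pass without any 1 of the 4 hairpin arrays (adjusted p up to 0.163). Without the uninduced array of hairpin 1 or of hairpin 2, 5 of the 8 passed, Ddx4, Mael, Tex11, Slc25a31 and Mov10l1. Tex101 and Stk31 measured 0.75 (SE 0.10) and 1.01 (SE 0.13), each with a limma adjusted p of 0.0707. Hormad1, Sycp3 and Smc1b, which also did not pass, differed by 0.44, 0.54 and 0.11 under hairpin 1. Under hairpin 2 these genes differed by -0.10, 0.31 and -0.16, and in the scrambled line by -0.45, -1.16 and -0.71.

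DMRT1 is also made by Sertoli cells, so markers of gonadal somatic cells were read. Of 11 genes 0 passed by limma, 2 had an unadjusted p under 0.05, and their mean lay between 6.97 and 7.05 on the 6 arrays. Their median change was -0.04, and only 3 of the 11, Cyp11a1, Lhx9 and Sox9, had a positive change. Cyp11a1 measured 0.33 (SE 0.11), Lhx9 0.26 (SE 0.10), Gata4 -0.10 (SE 0.12) and Sox9 0.23 (SE 0.14). Sox9 measured -0.025 with the feeder marker mean as a covariate, and Gata4 0.051 without the uninduced array of hairpin 2, so that both turned direction. Sox9 differed by 0.00, 0.46 and 0.55 in the hairpin 1, hairpin 2 and scrambled lines. Of 19 feeder markers 0 passed and 3 had an unadjusted p under 0.05, and all 19 had a positive change over both hairpins. By line they ran from -0.09 to 0.11 under hairpin 1, 0.18 to 0.74 under hairpin 2 and 0.20 to 1.12 in the scrambled line. With the feeder marker mean as a covariate Sohlh2 measured 1.54 (limma adjusted p = 0.0276). Dmrt1 then measured 0.88, against 0.86 without the covariate, and did not pass (limma adjusted p = 0.35). The covariate leaves fewer residual degrees of freedom. Beyond these values the part of feeder cells was not tested. Of the 10 embryonic stem cell markers 0 passed and 1 had an unadjusted p under 0.05, and their changes ran from -0.15 for Tdgf1 to 0.23 for Klf4.

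The genes whose pattern was nearest to Sohlh2 and Dmrt1 were found by the root mean square difference of log2 values over the 6 arrays, each gene centred on its own mean. Nearest to Sohlh2 were Piwil2, a germ-line Argonaute gene (difference 0.09), Hormad2, a gene of the meiotic chromosome axis (0.10), and Boll, an RNA-binding relative of Dazl (0.13). Since these genes were chosen for a likeness over the same 6 arrays, their changes are a description of that choice and carry no test. Over both hairpins they measured 1.46, 1.33 and 1.42 with dox, and in the scrambled line -0.18, -0.22 and -0.08. Nearest to Dmrt1 were Usp17la, one of a family of near-identical ubiquitin protease copies whose value is therefore uncertain (0.10), the carboxypeptidase gene Cpn1 (0.12) and Pls1, which encodes the actin-bundling protein plastin (0.14). Over both hairpins Usp17la, Cpn1 and Pls1 measured 1.08, 0.78 and 0.75 with dox, which again describes the choice. In the scrambled line these genes measured -0.61, -0.70 and -0.32, where Dmrt1 measured -0.57.

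**Figure D4:**
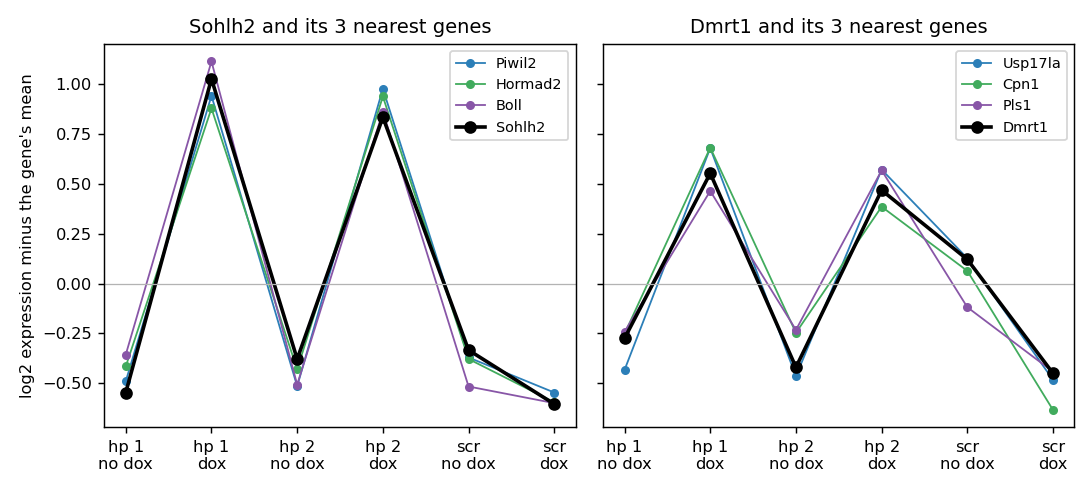
Log2 expression minus the mean of each gene over the 6 arrays (vertical axis) on each array (horizontal axis; hp 1, hp 2 and scr are the hairpin 1, hairpin 2 and scrambled lines) for Sohlh2 and Dmrt1 in black and the 3 nearest genes of each in colour; joining lines guide the eye. The nearest genes differed from Sohlh2 by 0.09 to 0.13 and from Dmrt1 by 0.10 to 0.14 in root mean square, and the uninduced scrambled array stands higher among the Dmrt1 group than among the Sohlh2 group.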

How the data were processed

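The authors deposited log2 expression values per probe set, for which the submitters' processing notes name Affymetrix Power Tools and RMA; versions, options and build are not given in the sources used here. RMA brings all arrays close to a common distribution and so hides a shift common to most genes. Array medians of the deposited values ran from 7.02 to 7.08. Of 35556 probe sets, 21789 had 1 symbol, 1621 several and 12146 none; the brightest probe set of each symbol gave 19938 genes, all tested. By Entrez identifier 21698 of the probe sets matched RefSeq (GRCm38.p6), used for names, neighbours and promoters.

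Values were fitted with limma 3.58.1 in R 4.3.3, with 1 mean per group over the 6 arrays (2 residual and 4.44 prior degrees of freedom), or the induced hairpins against the 4 other arrays. Tests were two-sided and adjusted by Benjamini-Hochberg over all genes at 0.05, and the fits were tested on simulated data. SE is limma's moderated standard error. Changes of single lines carry no test. The members and the 10 lists were chosen with earlier results of these data known. Named genes were the members, Pcgf6, list genes that passed in any comparison, the 4 strongest of each list, and the 3 genes nearest in pattern to members changed 1.5-fold under both hairpins; Kank1, Ccdc169, Dclk1 and Dmrt3 were chosen as neighbours after the members' values were seen. The hairpin number pairs arrays, since both come from the same line; deviations of same-numbered arrays correlated at 0.181 across genes. With the hairpin as a block no call of a member changed. At most 0.0984% of values were identical between 2 arrays.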

Additional observations from a re-analysis of the deposited data

Results flagged for a closer look

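The change with dox under the Pcgf6 hairpins differed from that in the scrambled line, past the threshold of limma, for 9 of the genes listed or nearest in pattern, none of them among the 6 factors. The differences were 2.73 for Tex11 and 2.64 for Mael (each with an adjusted p of 0.00645), 2.57 for Slc25a31 (adjusted p = 0.0327), 1.93 for Tdrkh (adjusted p = 0.0427), 1.84 for Mov10l1 (adjusted p = 0.0366) and 1.62 for Ddx4 (adjusted p = 0.0456) in the germ cell list. In the scrambled line, a single pair of arrays, these genes differed by -0.39, -0.65, -0.18, -0.14, 0.11 and 0.10 in that order. The other 3, Piwil2 (1.64), Hormad2 (1.55) and Usp17la (1.69), were chosen for their likeness to Sohlh2 or Dmrt1 over the same arrays, so their differences describe that choice and are no test of it. Each was higher under both Pcgf6 hairpins, and none passed where the uninduced array of either hairpin was left out, since 0 of 19938 genes then passed by limma (1000 and 1446 with an unadjusted p under 0.05 without the array of hairpin 1 and 2). Each group held at most 2 arrays, so no array could be tested as an outlier.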

How the results depend on the processing

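In the dox comparison 40 genes passed. This became 62 with an intensity trend, 7 when the dimmest 50% of genes were dropped, 20 with the feeder marker mean as a covariate and 14 to 26 with 1 hairpin array left out. In the difference from scrambled 14 passed, against 23 with the hairpin as a block, 22 with median centring, 9 and 4 without the dimmest 25% and 50%, 0 over all probe sets (1851 with an unadjusted p under 0.05), 0 with the feeder covariate (689) and 0 to 4 with 1 array left out. Against the 4 other arrays 82 passed, and 39 with the hairpin as a block, 38 without the dimmest 50%, 41 with the feeder covariate and 24 to 81 with 1 array left out (24 and 28 without the induced arrays of hairpins 1 and 2, 45 without the uninduced array of hairpin 2 and 54 without the induced scrambled array). In this last comparison the block turned the estimate into the change with dox within the hairpin lines. Causes were not tested, beyond this and the fewer genes or arrays of some settings.

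Sohlh2 stayed between 1.30 and 1.54 in the dox comparison and passed in 9 of 12 alternatives, Dmrt1 between 0.79 and 0.93, passing in 6 of 13. Sohlh2 was not in the set without the dimmest 50%. The direction of some genes that did not pass turned. Median centring gave -0.014 for Figla, -0.019 for Tcf3 and, against the 4 other arrays, -0.0034 for Nobox. Quantile normalization gave -0.0016 for Tcf3, and the mean of probe sets 0.019 for Obox6. The feeder covariate gave 0.0031 for Sohlh1, 0.0089 for Zp3, -0.088 for Dmrta1, -0.025 for Sox9, -0.035 for Mmp2, 0.044 for Fgf4 and 0.018 for Dmrt3. With 1 array left out the ranges were -0.093 to 0.075 for Sohlh1, -0.062 to 0.074 for Figla, -0.040 to 0.16 for Nobox (-0.015 to 0.066 against the 4 other arrays), -0.055 to 0.056 for Tcf3, -0.035 to 0.14 for Tcf4, -0.053 to 0.20 for Dmrta1, -0.24 to 0.0011 for Fgf4, -0.079 to 0.0071 for Dmrt3 and -0.25 to 0.051 for Gata4.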
